A study of Mus musculus with 21 samples.

Results

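The RNA levels of 10 genes of the transforming growth factor beta (TGF-beta) and activin pathway were followed in cultured natural killer (NK) cells lacking Ikaros, Aiolos or both. The genes were chosen by symbol: the ligand gene Tgfb1, the receptor genes Tgfbr1, Tgfbr2, Tgfbr3 and Acvr2a, the SMAD genes Smad3, Smad4 and Smad7, and the corepressor genes Ski and Skil. All 10 had a row among the 11736 genes of the table. The rule names genes and uses no measured value, but the genes were proposed with earlier results of these data known. Ikaros (gene Ikzf1) and Aiolos (gene Ikzf3) are related DNA-binding proteins that shape lymphocyte development.

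NK cells, innate lymphocytes that kill infected and transformed cells, were sorted from the spleens of mice in which one or both genes were deleted in NK cells. They were then cultured with human interleukin 15 at 50 ng/ml, and polyadenylated RNA was sequenced. The 4 groups were Cre only controls, which carry the recombinase without a deleted gene (4 libraries, S16 to S19), Ikzf1 KO (4 libraries, S12 to S15), Ikzf3 KO (4 libraries, S1 to S4) and the double knockout of Ikzf1 and Ikzf3, called DKO (3 libraries, S5 to S7). Every group was cultured with interleukin 15 at the same concentration. The sample titles name Cre for the control group alone, and the deletion groups were taken to carry it as well. The labels call the samples biological replicates. The promoter that drives Cre and the strain, age and sex of the mice were not given in the sources used here.

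TGF-beta is secreted in a latent form and, once activated, binds the type II receptor TGFBR2, which phosphorylates the type I receptor TGFBR1. TGFBR1 phosphorylates SMAD2 and SMAD3, which join SMAD4 and enter the nucleus, while SMAD7 blocks the receptor and SKI and SKIL hold SMAD complexes in a repressed state. Activins use their own type II receptors, among them ACVR2A, and feed into the same SMADs. In NK cells TGF-beta signalling is known to restrain cytotoxicity, proliferation and metabolism, and to favour features shared with type 1 innate lymphoid cells (ILC1).

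Levels are in RPKM, reads scaled to exon length and library size, so that they can be set side by side between genes. A fold change is a difference on log2(RPKM + 0.5), which understates changes of genes with low values, and a gene was called changed at an adjusted p below 0.05 (limma, Benjamini-Hochberg adjustment over the 10032 genes kept). Reads in genes that came out whole ranged from 8.6 to 21.2 megareads per library. The deleted genes were lower where labelled so, without reaching 0: Ikzf1 ran from 18.3 to 19.9 RPKM in Ikzf1 KO and from 25.3 to 38.4 in DKO, against 57.7 to 69.4 in Cre only. Ikzf3 ran from 15.2 to 20.2 RPKM in Ikzf3 KO and from 20.0 to 23.7 in DKO, against 37.7 to 45.0 in Cre only. The NK cell receptor genes Ncr1 and Klrb1c were present in all 15 libraries, at no less than 80.7 and 100.3 RPKM. The summed NK cell markers (11 of 12 listed) ran from 19881 to 25098 RPKM in Cre only and 24200 to 27433 in Ikzf1 KO, but from 7047 to 19917 in Ikzf3 KO and 3924 to 9229 in DKO. In that sum the granule genes weigh most: from Cre only to DKO the mean of Gzma went from 10867 to 3085 RPKM, that of Gzmb from 9523 to 2440 and that of Prf1 from 720 to 35.5. The Ikzf3 KO libraries S3 and S4 stood apart from S1 and S2. The Cre only libraries S18 and S19 stood apart from S16 and S17. DKO libraries carried more RNA of T cell markers than the others (10 of 12 listed markers summed to 811 to 1687 RPKM, against 436 to 688 in the other groups), with Cd3e at 24.8 to 44.8 RPKM and Cd8a at 0.0355 to 0.0554. The part of T cell RNA in the DKO results was not tested. Of other cell types the sort could hold, markers of B cells (1 of 8 listed) summed to 0 to 2.23 RPKM over all libraries and markers of myeloid cells (3 of 10) to 1.57 to 11.2. The myeloid sum ran from 3.93 to 8.49 RPKM in Cre only and from 1.57 to 3.52 in DKO. From Cre only to DKO the mean of Itgam went from 6.38 to 0.0774 RPKM and that of Cd14 from 0.249 to 1.06. Lyz2 was at 0 in every Cre only library and at 0.918 to 1.94 RPKM in DKO. Markers of megakaryocytes and platelets (3 of 8) summed to 68.1 to 111 RPKM in DKO and 93.7 to 267 elsewhere, nearly all of it Itgb3, while Pf4 was at 0 in the other 12 libraries and at 0.931 to 4.12 RPKM in DKO. The part of these cells in the DKO results was not tested. In RNA of a whole culture, fewer cells of a type and less RNA per cell cannot be told apart.

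Of the 4 genes below, Tgfb1, Tgfbr1, Tgfbr2 and Smad3, each was called lower in at least 1 deletion against Cre only, and their promoter windows are shown so that their letters can be compared. Each window holds 250 bases before and 50 bases after an annotated start, 5′ to 3′ on the gene's strand, from RefSeq on GRCm38.p6. Capitals mark GGGAA, the core of sites bound by the Ikaros family, or its reverse complement TTCCC.
Smad3, chr9:63757945-63758244, minus strand: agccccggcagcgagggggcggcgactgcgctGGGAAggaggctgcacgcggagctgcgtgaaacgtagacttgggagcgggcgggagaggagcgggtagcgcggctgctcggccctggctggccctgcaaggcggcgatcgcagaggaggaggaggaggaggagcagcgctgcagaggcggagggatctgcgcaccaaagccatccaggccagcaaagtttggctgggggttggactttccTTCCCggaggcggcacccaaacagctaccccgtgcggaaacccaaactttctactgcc
Tgfbr2, chr9:116175314-116175613, minus strand: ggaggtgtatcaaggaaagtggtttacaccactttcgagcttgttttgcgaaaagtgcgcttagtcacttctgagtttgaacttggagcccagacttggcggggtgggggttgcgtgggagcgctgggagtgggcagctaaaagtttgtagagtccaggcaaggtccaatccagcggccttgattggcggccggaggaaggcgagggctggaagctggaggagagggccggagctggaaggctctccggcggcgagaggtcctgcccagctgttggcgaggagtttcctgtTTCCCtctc
Tgfbr1, chr4:47352972-47353271, plus strand: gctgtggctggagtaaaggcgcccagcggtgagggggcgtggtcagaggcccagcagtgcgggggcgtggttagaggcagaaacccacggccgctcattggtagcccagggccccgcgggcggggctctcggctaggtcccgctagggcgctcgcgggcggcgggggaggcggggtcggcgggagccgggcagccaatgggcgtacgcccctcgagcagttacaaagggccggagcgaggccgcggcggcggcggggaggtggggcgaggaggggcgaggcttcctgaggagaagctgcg
Tgfb1, chr7:25686752-25687051, plus strand: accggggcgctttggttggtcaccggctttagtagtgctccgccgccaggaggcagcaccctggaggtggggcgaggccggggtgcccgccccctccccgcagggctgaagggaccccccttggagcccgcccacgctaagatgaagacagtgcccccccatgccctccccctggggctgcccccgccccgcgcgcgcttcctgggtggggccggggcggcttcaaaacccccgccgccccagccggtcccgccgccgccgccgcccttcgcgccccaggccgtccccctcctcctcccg
The Smad3 window held 2 matches, 1 on each strand, and the Tgfbr2 window held 1. No match lay in the Tgfbr1 and Tgfb1 windows. The core is short: of 32851 windows of the same length in the table, 20599 (62.7%) held it on either strand. Windows were found for 6 of the 10 genes, and 3 of these 7 windows (Tgfbr1 has a second start) held the core. A match is a description of the letters and not a bound site.

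Smad3 was lower in each single deletion and near the control level in the double deletion, where the ligand gene Tgfb1 and the receptor gene Tgfbr2 were lowest by their means. Against Cre only, 2 of the 10 genes fell in Ikzf1 KO (Tgfbr2 and Smad3) and none rose, where 6.32% of all genes kept were called, 2.78% lower and 3.54% higher. In Ikzf3 KO 3 fell (Tgfb1, Tgfbr1 and Smad3) and none rose, where 14.2% of all genes were called and 7.88% were called lower. In DKO 2 fell (Tgfb1 and Tgfbr2) and 1 rose (Tgfbr3), where 18.7% of all genes were called, 10.6% lower and 8.06% higher. The median change of the 10 genes was -0.52 in Ikzf1 KO, -0.51 in Ikzf3 KO and -0.35 in DKO, beside medians of -0.01, -0.02 and 0 over all genes. The groups did not overlap with Cre only in 6 genes in Ikzf1 KO (24.9% of all genes), 5 in Ikzf3 KO (18.2%) and 3 in DKO (35.0%). These 3 comparisons share the Cre only libraries, so that a Cre only library that is high or low moves all 3.

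**Figure D1:**
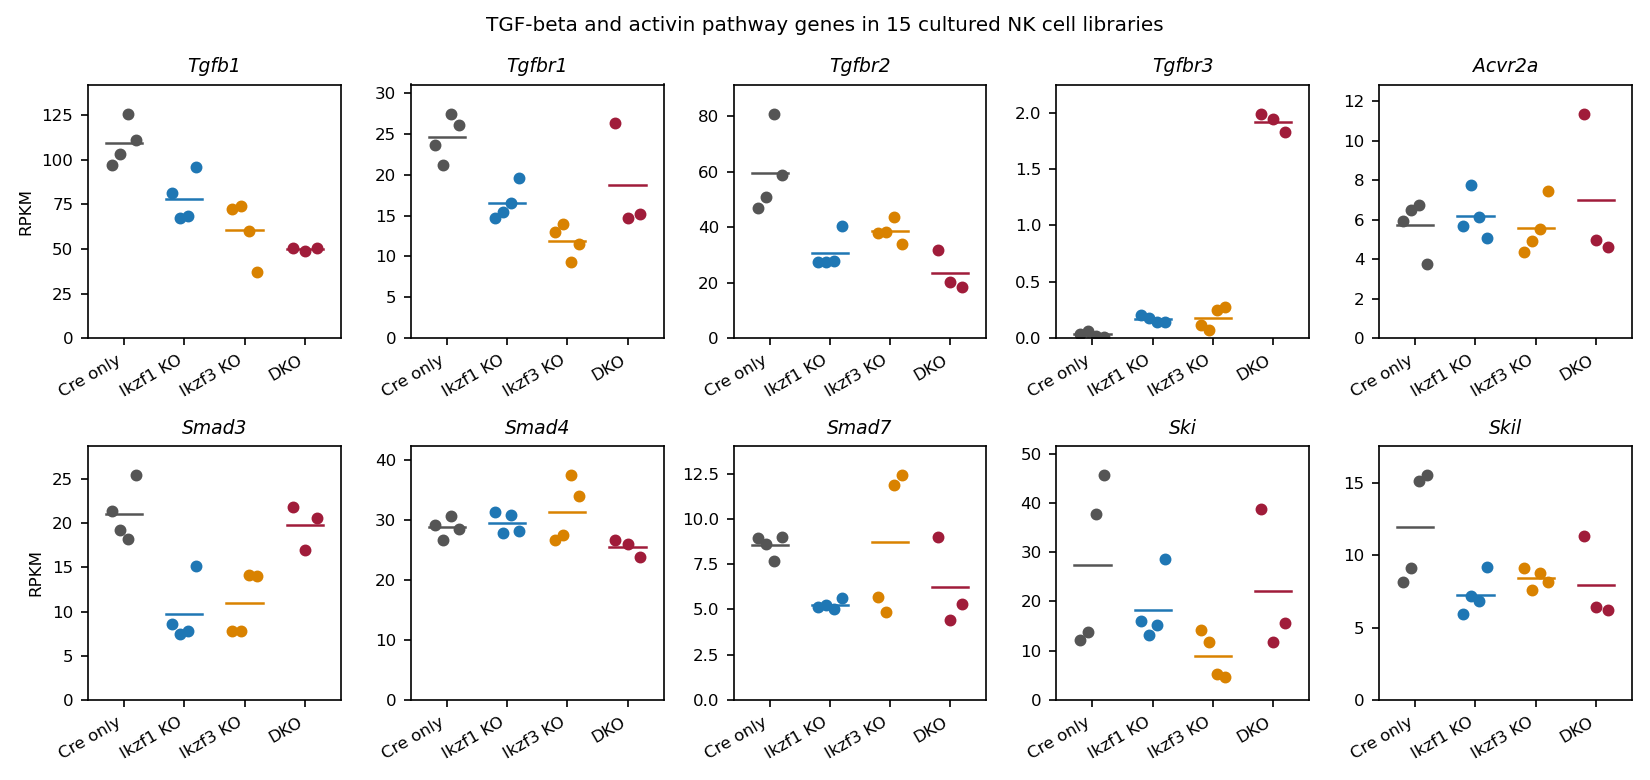
RPKM of each of the 10 genes in the 15 libraries (points), by genotype on the x axis, with the group mean as a line; each panel has its own y axis from 0. Smad3 lies lower in both single deletions and back among the Cre only values in DKO, while Tgfb1 lies lowest in DKO by its mean and Tgfbr3 is above 1.8 RPKM in DKO libraries alone.

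**Figure D2:**
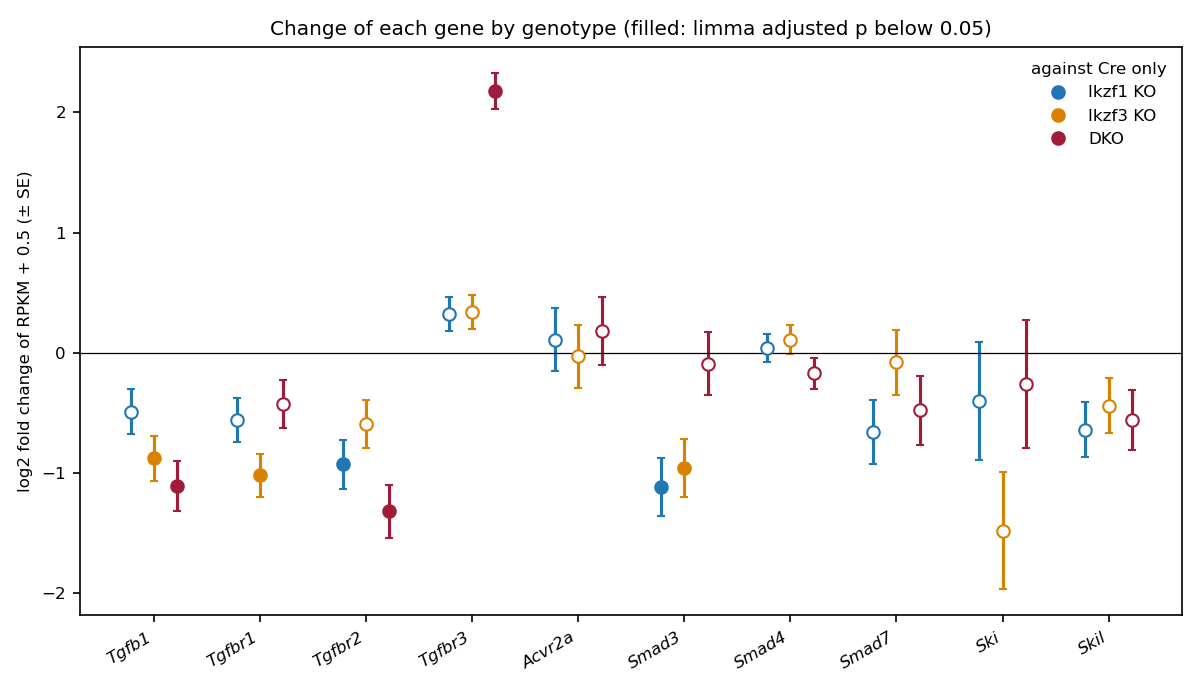
Log2 fold change of RPKM + 0.5 against Cre only, with its SE, for each of the 10 genes in Ikzf1 KO, Ikzf3 KO and DKO; filled points passed an adjusted p of 0.05. Tgfb1, Tgfbr1 and Tgfbr2 lie below 0 in every genotype, Smad3 lies below 0 in the single deletions and near 0 in DKO, and Tgfbr3 rises by 2.18 in DKO.

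Tgfb1 (ENSMUSG00000002603, chromosome 7, positions 25687002 to 25705077 of GRCm38, plus strand) encodes TGF-beta 1, the main TGF-beta of lymphocytes. It was the most abundant of the 10 genes per length. Cre only libraries held 97.1, 103, 126 and 111 RPKM (S16 to S19), and Ikzf1 KO libraries 81.2, 67.2, 68.5 and 96.1 (S12 to S15). Ikzf3 KO libraries held 72.5, 73.8, 60.3 and 37.0 RPKM (S1 to S4), and DKO libraries 50.7, 48.6 and 50.7 (S5 to S7). Every library with a deletion lay below every Cre only library, S15 only just, and S4 lay lowest of all. The group means ran from 109 ± 12.4 RPKM (SD, n = 4) in Cre only through 78.3 ± 13.5 (SD, n = 4) in Ikzf1 KO and 60.9 ± 17.1 (SD, n = 4) in Ikzf3 KO to 50.0 ± 1.19 (SD, n = 3) in DKO. The fall was called in Ikzf3 KO (log2 fold change -0.88 ± 0.19 SE, adjusted p = 0.00952) and in DKO (-1.11 ± 0.21, adjusted p = 0.00207). In Ikzf1 KO the change was -0.49 ± 0.19 and was not called (adjusted p = 0.164), but passed without S4 (adjusted p = 0.0324, over a range of 0.000862 to 0.532). DKO did not differ beyond the threshold from Ikzf1 KO (-0.63 ± 0.21, adjusted p = 0.0866) or from Ikzf3 KO (-0.23 ± 0.21, adjusted p = 0.436). Without S4, whose value was the lowest, both passed (-0.63, adjusted p = 0.0115, range 0.00148 to 0.245, and -0.45, adjusted p = 0.0485, range 0.0217 to 0.68). The call in Ikzf3 KO was -0.57 without S3 and S4 (adjusted p = 0.0249) and ended without S18 and S19 (-0.76, adjusted p = 0.0852) and in a fit of those 2 groups alone (adjusted p = 0.0666), over a range of 0.00622 to 0.0852 in all alternatives. The call in DKO held under all 28 alternatives (adjusted p from 3.03e-05 to 0.0247).

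Tgfbr1 (ENSMUSG00000007613, chromosome 4, positions 47353222 to 47414931, plus strand) encodes the type I receptor kinase that phosphorylates SMAD2 and SMAD3. Cre only libraries held 23.7, 21.2, 27.4 and 26.1 RPKM, and Ikzf1 KO libraries 14.7, 15.4, 16.5 and 19.6. Ikzf3 KO libraries held 13.0, 13.9, 9.37 and 11.5 RPKM, and DKO libraries 26.3, 14.7 and 15.2. All libraries of both single deletions lay below Cre only. In DKO, S6 and S7 lay below Cre only and S5 lay among its values. Means were 24.6 ± 2.77 RPKM (SD, n = 4) in Cre only, 16.5 ± 2.17 (SD, n = 4) in Ikzf1 KO, 11.9 ± 1.99 (SD, n = 4) in Ikzf3 KO and 18.7 ± 6.56 (SD, n = 3) in DKO. Tgfbr1 fell in Ikzf3 KO by 1.02 ± 0.18 on the log2 scale (adjusted p = 0.003), a call held under all 27 alternatives (adjusted p from 0.000546 to 0.0377). In Ikzf1 KO the change was -0.56 ± 0.18 (adjusted p = 0.0879), and in DKO it was -0.43 ± 0.20 (adjusted p = 0.148). Without S5 the change in DKO was -0.69 (adjusted p = 0.0129, over a range of 0.0129 to 0.489), and that in Ikzf1 KO passed as well (adjusted p = 0.0256, over a range of 0.000572 to 0.387). Against Ikzf3 KO, DKO cells had more Tgfbr1 (0.59 ± 0.20, adjusted p = 0.0471), but 17 of 27 alternatives ended that call (adjusted p from 0.0307 to 0.281), and without S5 the value was 0.33 (adjusted p = 0.189).

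Tgfbr2 (ENSMUSG00000032440, chromosome 9, positions 116084293 to 116175360, minus strand) encodes the type II receptor that binds TGF-beta directly. Cre only libraries held 47.0, 50.9, 80.9 and 58.7 RPKM, and Ikzf1 KO libraries 27.4, 27.4, 27.7 and 40.3. Ikzf3 KO libraries held 37.9, 38.3, 43.6 and 34.0 RPKM, and DKO libraries 31.8, 20.4 and 18.6. No library with a deletion reached the Cre only range. S6 and S7 were lowest, S18 was highest, and S15 lay above the other Ikzf1 KO libraries. The order of the means was Cre only (59.4 ± 15.1 RPKM, SD, n = 4), Ikzf3 KO (38.5 ± 3.93, n = 4), Ikzf1 KO (30.7 ± 6.4, n = 4) and DKO (23.6 ± 7.17, n = 3). Tgfbr2 fell in Ikzf1 KO by 0.93 ± 0.20 on the log2 scale (adjusted p = 0.0124) and in DKO by 1.32 ± 0.22 (adjusted p = 0.000691). In Ikzf3 KO the change was -0.59 ± 0.20 and missed the threshold (adjusted p = 0.0596), which it passed without S5 (adjusted p = 0.0365, over a range of 0.0365 to 0.344). DKO was also lower than Ikzf3 KO (-0.73 ± 0.22, adjusted p = 0.0293), but did not differ beyond the threshold from Ikzf1 KO (-0.39 ± 0.22, adjusted p = 0.321). The call in Ikzf1 KO ended without S18 and S19 (-0.68, adjusted p = 0.104, over a range of 5.34e-05 to 0.104), and that in DKO held under all 28 alternatives (adjusted p from 1.87e-05 to 0.00918). The difference from Ikzf3 KO was lost in 5 of 27 alternatives, among them without S6 (adjusted p = 0.114), without S7 (adjusted p = 0.127) and without S3 (adjusted p = 0.077), over a range of 0.00825 to 0.127.

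Tgfbr3 (ENSMUSG00000029287, chromosome 5, positions 107106570 to 107289629, minus strand) encodes betaglycan, a co-receptor that presents TGF-beta to TGFBR2 and also binds inhibin. It was nearly silent in Cre only libraries, at 0.0423, 0.0623, 0.0227 and 0.00935 RPKM, which came from 4, 6, 2 and 1 reads. Ikzf1 KO libraries held 24, 14, 14 and 21 reads, and Ikzf3 KO libraries 9, 4, 21 and 22. DKO libraries held 194, 259 and 185 reads, or 1.99, 1.94 and 1.83 RPKM. The 3 DKO libraries lay close together and far above all others, and every library of the single deletions lay above every Cre only library in RPKM. The RPKM means were 0.0342 ± 0.0231 (SD, n = 4) in Cre only, 0.168 ± 0.0311 (SD, n = 4) in Ikzf1 KO, 0.179 ± 0.102 (SD, n = 4) in Ikzf3 KO and 1.92 ± 0.0845 (SD, n = 3) in DKO. Summed per group and set against depth, the 638 reads of DKO and the 13 of Cre only gave a ratio of 57 (95% exact counting interval 33.1 to 108). The 73 reads of Ikzf1 KO gave a ratio of 4.93 (2.71 to 9.7) and the 56 of Ikzf3 KO one of 5.6 (3.02 to 11.2). These intervals cover counting error only.

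Tgfbr3 passed the filter on low values through the DKO libraries alone, so that its DKO difference was bound to be large among the genes kept. With that limit, its log2 fold change on RPKM + 0.5 was 2.18 ± 0.15 in DKO against Cre only (adjusted p = 2.44e-07). It was 1.86 ± 0.15 against Ikzf1 KO (adjusted p = 5.56e-06) and 1.84 ± 0.15 against Ikzf3 KO (adjusted p = 1.34e-06). In the single deletions it was 0.32 ± 0.14 (Ikzf1 KO, adjusted p = 0.207) and 0.34 ± 0.14 (Ikzf3 KO, adjusted p = 0.109). A fit with limma's voom on the recovered reads, which adds no 0.5 RPKM, gave 2.35 in Ikzf1 KO (adjusted p = 0.0105, over a range of 0.0105 to 0.777) and 2.33 in Ikzf3 KO (adjusted p = 0.00982, over a range of 0.00982 to 0.51). It gave 5.85 in DKO (adjusted p = 1.13e-06, over a range of 1.42e-08 to 0.000153). The sum of ILC1 markers (7 of 8 listed) ran from 516 to 705 RPKM in DKO, 448 to 517 in Ikzf1 KO, 129 to 386 in Cre only and 46.1 to 133 in Ikzf3 KO. In DKO most of it was Tmem176a, Tmem176b and Cxcr6, with means of 110, 238 and 173 RPKM. The mean of Tmem176b was 250 RPKM in Ikzf1 KO and 72.2 in Cre only. Itga1 went the other way, from a mean of 8.98 RPKM in Cre only to 5.63 in DKO. The part of ILC1, and of the T cell marker RNA given above, in the Tgfbr3 values was not tested.

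Acvr2a (ENSMUSG00000052155, chromosome 2, positions 48814109 to 48903269, plus strand), a type II receptor for activins, showed no called difference in any comparison. Its RPKM ran from 3.73 to 6.74 in Cre only, 5.09 to 7.77 in Ikzf1 KO, 4.35 to 7.46 in Ikzf3 KO and 4.62 to 11.4 in DKO. S5 lay far above all other libraries, and S6 and S7 lay at 4.97 and 4.62. Against Cre only the changes were 0.11 ± 0.26 (Ikzf1 KO, adjusted p = 0.897), -0.03 ± 0.26 (Ikzf3 KO, adjusted p = 0.941) and 0.18 ± 0.28 (DKO, adjusted p = 0.704).

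Smad3 (ENSMUSG00000032402, chromosome 9, positions 63646767 to 63757994, minus strand) encodes the SMAD that carries the TGF-beta and activin signal to DNA. Cre only libraries held 21.4, 19.3, 18.2 and 25.5 RPKM. Ikzf1 KO libraries held 8.55, 7.51, 7.82 and 15.1 RPKM, and Ikzf3 KO libraries 7.81, 7.85, 14.1 and 14.0. DKO libraries held 21.9, 17 and 20.6 RPKM. All 8 single-deletion libraries lay below all 7 libraries of the other groups, with S15, S3 and S4 the highest of the 8. DKO and Cre only libraries were interleaved. The means were 21.1 ± 3.20 RPKM (SD, n = 4) in Cre only and 19.8 ± 2.54 (SD, n = 3) in DKO, against 9.75 ± 3.61 (SD, n = 4) in Ikzf1 KO and 10.9 ± 3.6 (SD, n = 4) in Ikzf3 KO.

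Against Cre only, Smad3 fell in Ikzf1 KO by 1.12 ± 0.24 on the log2 scale (adjusted p = 0.0118) and in Ikzf3 KO by 0.96 ± 0.24 (adjusted p = 0.0179). The DKO change was -0.09 ± 0.26 (adjusted p = 0.857). DKO cells had more Smad3 than Ikzf1 KO cells (1.04 ± 0.26, adjusted p = 0.0241), where 7.48% of all genes were called, 3.76% higher and 3.72% lower. They also had more than Ikzf3 KO cells (0.87 ± 0.26, adjusted p = 0.0283), where 20.1% of all genes were called and 10.2% were called higher. Against Ikzf1 KO, 2 of the 10 genes differed, Tgfbr3 and Smad3, both higher in DKO. Against Ikzf3 KO, 4 differed: Tgfbr1, Tgfbr3 and Smad3 were higher in DKO and Tgfbr2 lower (9.85% of all genes were called lower). The groups did not overlap for 4 of the 10 genes in DKO against Ikzf1 KO (31.8% of all genes) and for 4 in DKO against Ikzf3 KO (24.2%).

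The falls in the single deletions kept their direction but not always their call, over values of -1.34 to -1.02 in Ikzf1 KO and -1.36 to -0.82 in Ikzf3 KO. In Ikzf1 KO the value was -1.16 without S16 and S17 (adjusted p = 0.0674) and -1.08 without S18 and S19 (adjusted p = 0.0594), over a range of 1.22e-05 to 0.0674. In Ikzf3 KO it was -1 without S16 and S17 (adjusted p = 0.0839), -0.92 without S18 and S19 (adjusted p = 0.0922) and -1.36 without S3 and S4 (adjusted p = 0.00386), and the call also ended in a fit of those 2 groups alone (adjusted p = 0.0579), over a range of 0.000303 to 0.0922. The difference between DKO and Ikzf1 KO lost its call without any one of S5, S6, S7, S12, S13 or S14 (adjusted p from 0.0509 to 0.0757, over a range of 0.00278 to 0.0757 in all alternatives). That between DKO and Ikzf3 KO lost it without S5 (adjusted p = 0.0838), without S7 (adjusted p = 0.0821) and in a fit of those 2 groups alone (adjusted p = 0.0996), over a range of 0.00301 to 0.0996.

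Smad4 (ENSMUSG00000024515, chromosome 18), the common partner of the signalling SMADs, had the narrowest range of the 10 genes, as highest over lowest library. Its libraries ran from 26.7 to 30.7 RPKM in Cre only, 27.9 to 31.3 in Ikzf1 KO, 26.7 to 37.5 in Ikzf3 KO and 23.9 to 26.7 in DKO, with no called difference in any comparison. Changes against Cre only were 0.04 ± 0.12 in Ikzf1 KO (adjusted p = 0.93), 0.11 ± 0.12 in Ikzf3 KO (adjusted p = 0.519) and -0.17 ± 0.13 in DKO (adjusted p = 0.398).

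Smad7 (ENSMUSG00000025880, chromosome 18) encodes the inhibitory SMAD, itself a gene that TGF-beta signalling turns on. Cre only libraries held 8.96, 8.61, 7.67 and 8.98 RPKM, and Ikzf1 KO libraries 5.13, 5.22, 5.01 and 5.61. Ikzf3 KO libraries held 5.70, 4.84, 11.9 and 12.4 RPKM, and DKO libraries 9, 4.39 and 5.33. Ikzf1 KO lay wholly below Cre only, S1 and S2 lay below it while S3 and S4 lay above it, and DKO was split between S5 and the other two. The change in Ikzf1 KO was -0.66 ± 0.27 and was not called (adjusted p = 0.178). In a fit of those 2 groups alone the same value passed (adjusted p = 0.00104, over a range of 0.00019 to 0.493). Ikzf3 KO differed from Cre only by -0.08 ± 0.27 (adjusted p = 0.842, over a range of 0.00689 to 0.95) and DKO by -0.48 ± 0.29 (adjusted p = 0.27, over a range of 0.0215 to 0.67). Over the alternatives the Ikzf3 KO value ran from -0.65 to 0.14, was called with array weights and changed sign without S1 or S2. The DKO value ran from -0.76 to -0.28 and was called with array weights and without S3 and S4.

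Ski (ENSMUSG00000029050, chromosome 4, positions 155154075 to 155222592, minus strand) and Skil (ENSMUSG00000027660, chromosome 3, positions 31095058 to 31122577, plus strand) encode corepressors that bind SMAD complexes, and neither was called in any comparison. Ski stood at 12.2, 13.8, 37.7 and 45.7 RPKM in Cre only, 16, 13.3, 15.3 and 28.7 in Ikzf1 KO, 14.2, 11.8, 5.17 and 4.73 in Ikzf3 KO, and 38.9, 11.8 and 15.6 in DKO. Within each of Cre only, Ikzf1 KO and DKO, the libraries S18 and S19, S15 and S5 were the highest. Skil stood at 8.13, 9.12, 15.2 and 15.5 RPKM in Cre only, 5.93, 7.20, 6.83 and 9.16 in Ikzf1 KO, 9.09, 7.58, 8.78 and 8.16 in Ikzf3 KO, and 11.3, 6.39 and 6.20 in DKO. The same 4 libraries were again the highest of their groups.

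With these 4 libraries as a term in the fit (Ikzf3 KO left out, since it holds none of them), Ski was higher in them by 1.38 ± 0.13 on the log2 scale and Skil by 0.69 ± 0.09. The 4 libraries were found in these data and carry no label of their own, so that the values are a description. The values were 0.56 ± 0.09 for Tgfbr2, 0.43 ± 0.09 for Tgfbr1, 0.37 ± 0.15 for Smad3, 0.24 ± 0.14 for Smad7 and 0.23 ± 0.08 for Tgfb1. They were 0.11 ± 0.25 for Acvr2a, -0.05 ± 0.11 for Tgfbr3 and 0.03 ± 0.07 for Smad4. In size the Ski value reached or passed those of 99.4% of the genes kept, and that of Skil 96.4%. For Tgfbr2, Tgfbr1 and Smad3 this share was 94.4%, 89.8% and 86.6%. It was 69.8% for Smad7, 69.6% for Tgfb1, 38.1% for Acvr2a, 17.1% for Tgfbr3 and 13.2% for Smad4. With the term and without Ikzf3 KO, 6 of the 10 genes were called in Ikzf1 KO against Cre only, where 20.1% of all genes were called. The main fit, which has no term and keeps Ikzf3 KO, gave 2 of the 10 and 6.32%. A fit of Ikzf1 KO and Cre only alone, with no term, gave 5 of the 10 and 20% of all genes. The part of the term in the higher count was not tested. Leaving out only S3 and S4, with no term, gave 5 of the 10 and 17% of all genes. Since the 4 libraries were chosen from these data, calls made with the term are a description too and are no support for a change. Beside Tgfbr2 and Smad3, the genes called with the term were Tgfb1 (-0.43, adjusted p = 0.0118, range 0.000862 to 0.532), Tgfbr1 (-0.45, adjusted p = 0.0154, range 0.000572 to 0.387), Smad7 (-0.60, adjusted p = 0.0243) and Skil (-0.47, adjusted p = 0.00878, range 0.00878 to 0.701). Ski stayed at -0.06 (adjusted p = 0.815) in Ikzf1 KO and -0.03 (adjusted p = 0.885) in DKO, against -0.40 ± 0.49 (adjusted p = 0.763) and -0.26 ± 0.53 (adjusted p = 0.778) without it, over ranges of 0.277 to 0.966 and 0.227 to 0.978. In Ikzf3 KO the change of Ski was -1.48 ± 0.49 (adjusted p = 0.0572), and it passed without S1, S2, S5 or S16 (adjusted p from 0.0248 to 0.0451, over a range of 0.0234 to 0.427). The change of Skil was -0.44 ± 0.23 there (adjusted p = 0.189) and -0.56 ± 0.25 in DKO (adjusted p = 0.132), the latter -0.82 without S5 (adjusted p = 0.0313, over a range of 0.00754 to 0.754).

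**Figure D3:**
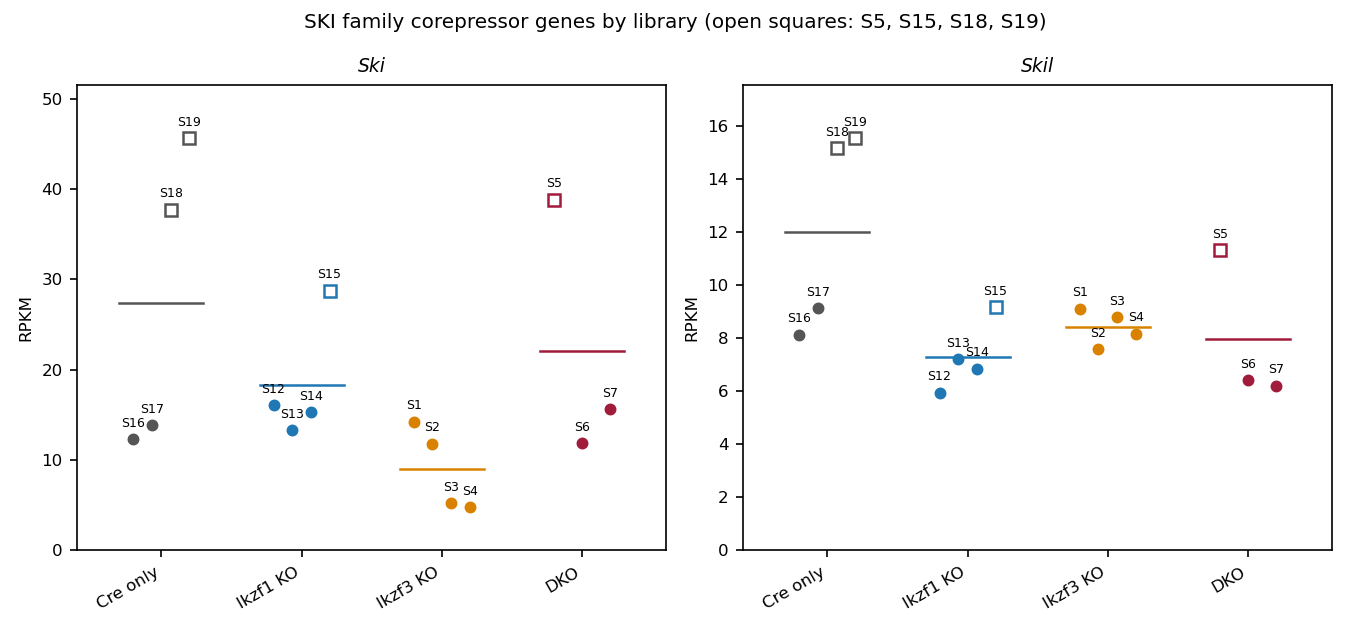
RPKM of Ski and Skil in the 15 libraries by genotype, with group means as lines; open squares mark S5, S15, S18 and S19. The marked libraries are the highest of their groups for both genes, at 28.7 to 45.7 RPKM for Ski and 9.16 to 15.5 for Skil.

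Whether the double deletion equals the sum of the single deletions was tested as the departure from additivity on the log2 scale, in which the Cre only libraries enter by construction. It was called in 3 of the 10 genes, Smad3, Tgfbr3 and Tgfbr1, all upward, where 6.55% of all genes were called, 3.63% upward and 2.92% downward. For Smad3 the single deletions summed to -2.08 and the double deletion gave -0.09, a departure of 2.00 ± 0.35 (adjusted p = 0.00465) that held under all 26 alternatives (values from 1.86 to 2.40, adjusted p from 0.000171 to 0.0198). For Tgfbr1 the sum was -1.58 and the double deletion gave -0.43, a departure of 1.15 ± 0.27 (adjusted p = 0.0198). That call ended without S18 and S19 (1.02, adjusted p = 0.0774, over a range of 0.014 to 0.0774). Tgfbr3 passed the filter on low values through the DKO libraries alone, which favours an upward departure among the genes kept. With that limit, its sum was 0.66 against 2.18, a departure of 1.52 ± 0.20 (adjusted p = 0.000802). By voom on the recovered reads the departure was 1.17 and not called (adjusted p = 0.278, over a range of 5.23e-05 to 0.278). On that scale the single-deletion changes of 2.35 and 2.33 stood beside 5.85 in DKO. All departures take the loss of each gene in DKO as equal to that in the single deletion. Mean Ikzf1 was 30.3 RPKM in DKO and 19.1 in Ikzf1 KO, and mean Ikzf3 was 21.5 in DKO and 17.8 in Ikzf3 KO. The part of these differences in the departures was not tested.

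The other 2 genes that fell in DKO lay near the sum. Tgfbr2 gave -1.32 against a sum of -1.52 (departure 0.20 ± 0.29, adjusted p = 0.716), and Tgfb1 gave -1.11 against -1.37 (0.26 ± 0.28, adjusted p = 0.628). Ski had a departure of 1.62 ± 0.72 with a wide error (adjusted p = 0.216). A p above the threshold does not show that the deletions add.

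**Figure D4:**
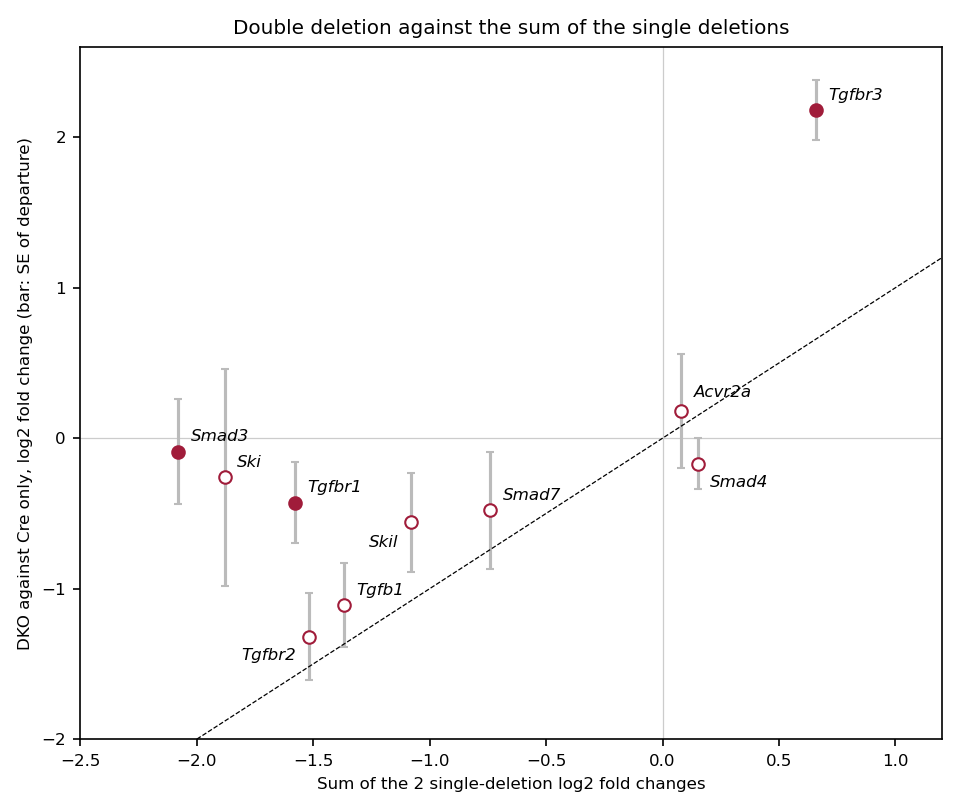
The log2 fold change in DKO against Cre only (y axis) against the sum of the log2 fold changes of the single deletions (x axis) for the 10 genes, with the SE of the departure as bars; points on the diagonal would be additive. Smad3, Tgfbr1 and Tgfbr3 lie above the diagonal by 2.00, 1.15 and 1.52, and Tgfb1 and Tgfbr2 lie near it.

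The genes most like Smad3 over the 15 libraries, by Pearson r of log2(RPKM + 0.5) among the genes kept, were Cmtm6 (0.949), Disc1 (0.928), Zc3h12d (0.904), Rassf2 (0.892) and Lats2 (0.881). Those most like Tgfbr3 were Adgra3 (0.976), Il11ra1 (0.975), Igfbp7 (0.975), Micall2 (0.97) and Fam184b (0.969). The points share libraries and groups, and the likeness to Tgfbr3 rests on the 3 DKO libraries.

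Among the other genes of the pathway, a list of 60 ligands, latency factors, receptors, SMADs and regulators had 40 in the table and 32 kept for the test. Against Cre only, 2 rose and 1 fell in Ikzf1 KO, 1 rose and 4 fell in Ikzf3 KO, and 4 rose and 5 fell in DKO, of 32 each, where 6.32%, 14.2% and 18.7% of all genes were called. Among those that rose, Eng and Acvr2b passed the filter on low values only through Ikzf1 KO and DKO libraries. Bmp7 passed it through DKO libraries alone. The filter thus favours these rises, and the counts carry that limit. Between genotypes, 2 rose and 2 fell in DKO against Ikzf1 KO, 4 rose and 1 fell in DKO against Ikzf3 KO, and the departure was called for 1 upward and 1 downward, where 7.48%, 20.1% and 6.55% of all genes were called. The list's median changes were 0.07, -0.04 and 0.03 in the 3 genotypes against Cre only.

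Eng, which encodes endoglin, a co-receptor of the same family as betaglycan, rose in the groups without Ikaros. Its mean was 0.0881 ± 0.115 RPKM (SD, n = 4) in Cre only, 3.71 ± 0.900 (SD, n = 4) in Ikzf1 KO, 0.0449 ± 0.0307 (SD, n = 4) in Ikzf3 KO and 6.22 ± 0.304 (SD, n = 3) in DKO. Eng passed the filter on low values only through these 2 groups, so that their differences from the others were bound to be large among the genes kept. With that limit, the log2 fold change was 2.83 ± 0.18 in Ikzf1 KO (adjusted p = 8.25e-07) and 3.53 ± 0.19 in DKO (adjusted p = 3.22e-08). DKO also lay above Ikzf1 KO (0.70 ± 0.19, adjusted p = 0.0397) and above Ikzf3 KO (3.62 ± 0.19, adjusted p = 2.63e-08). Eng ran from 2.37 to 4.27 RPKM in Ikzf1 KO libraries, where Tgfbr3 did not exceed 0.208.

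The ligand gene Gdf11, whose product signals through activin receptors, fell in all 3 genotypes. Its mean went from 2.36 ± 0.954 RPKM (SD, n = 4) in Cre only to 0.288 ± 0.0952 (SD, n = 4) in Ikzf1 KO, 0.322 ± 0.118 (SD, n = 4) in Ikzf3 KO and 0.832 ± 0.326 (SD, n = 3) in DKO. The changes were -1.81 ± 0.23 (adjusted p = 0.000366), -1.75 ± 0.23 (adjusted p = 0.000403) and -1.07 ± 0.25 (adjusted p = 0.00865). Gdf11 passed the filter through the 4 Cre only libraries and 1 DKO library, which favours falls among the genes kept. Its departure from additivity was 2.49 ± 0.34 (adjusted p = 0.000901), but with 0.5 RPKM added its single-deletion changes sum to more than a fall to 0 could give, so that an upward departure was bound to follow. Bmp7, a bone morphogenetic protein, rose in DKO (1.78 ± 0.26, adjusted p = 0.000256), to 2.03 ± 0.543 RPKM (SD, n = 3) from 0.255 ± 0.239 in Cre only (SD, n = 4). Bmp7 passed the filter through the 3 DKO libraries alone, the limit given for Tgfbr3. It was higher in DKO than in Ikzf1 KO (1.79 ± 0.26, adjusted p = 0.000564) and Ikzf3 KO (1.21 ± 0.26, adjusted p = 0.00444).

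Ltbp3, which encodes a latent TGF-beta binding protein, was highest in Ikzf3 KO and lowest in DKO by its means. Its mean was 6.47 RPKM in Cre only, 9.77 in Ikzf1 KO, 15.7 in Ikzf3 KO and 3.23 in DKO. It rose in Ikzf3 KO (1.26 ± 0.31, adjusted p = 0.0183) and was lower in DKO than in Ikzf1 KO (-1.53 ± 0.34, adjusted p = 0.0129) and Ikzf3 KO (-2.15 ± 0.34, adjusted p = 0.000531). The departure was -2.78 ± 0.46 (adjusted p = 0.00317). Furin, the protease that cleaves the TGF-beta precursor, fell in DKO against Cre only (-0.71 ± 0.17, adjusted p = 0.0111) and was lower in DKO than in Ikzf1 KO (-0.93 ± 0.17, adjusted p = 0.00391).

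Of the type I and type II receptor genes outside the 10, Acvr2b, a second activin type II receptor, rose in Ikzf1 KO (1.15 ± 0.22, adjusted p = 0.00578), from 0.207 to 1.09 RPKM, and in DKO (1.03 ± 0.24, adjusted p = 0.00757), to 0.954 RPKM. It passed the filter only through libraries of these 2 groups, so that its rise there carries the same limit. Acvr1, a type I receptor used by bone morphogenetic proteins, rose in DKO (0.95 ± 0.22, adjusted p = 0.0089), from 1.09 to 2.54 RPKM, and was higher there than in Ikzf3 KO (0.96 ± 0.22, adjusted p = 0.00797). Tab2, an adaptor of the TAK1 kinase of the SMAD-independent branch, fell in Ikzf3 KO (-0.49 ± 0.11, adjusted p = 0.0097) and in DKO (-0.48 ± 0.12, adjusted p = 0.0106). Pmepa1, a feedback inhibitor that TGF-beta induces, fell in Ikzf3 KO (-2.5 ± 0.63, adjusted p = 0.0182), to 0.659 ± 0.754 RPKM (SD, n = 4) from 6.30 ± 4.61 in Cre only (SD, n = 4), groups with a wide spread.

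**Figure D5:**
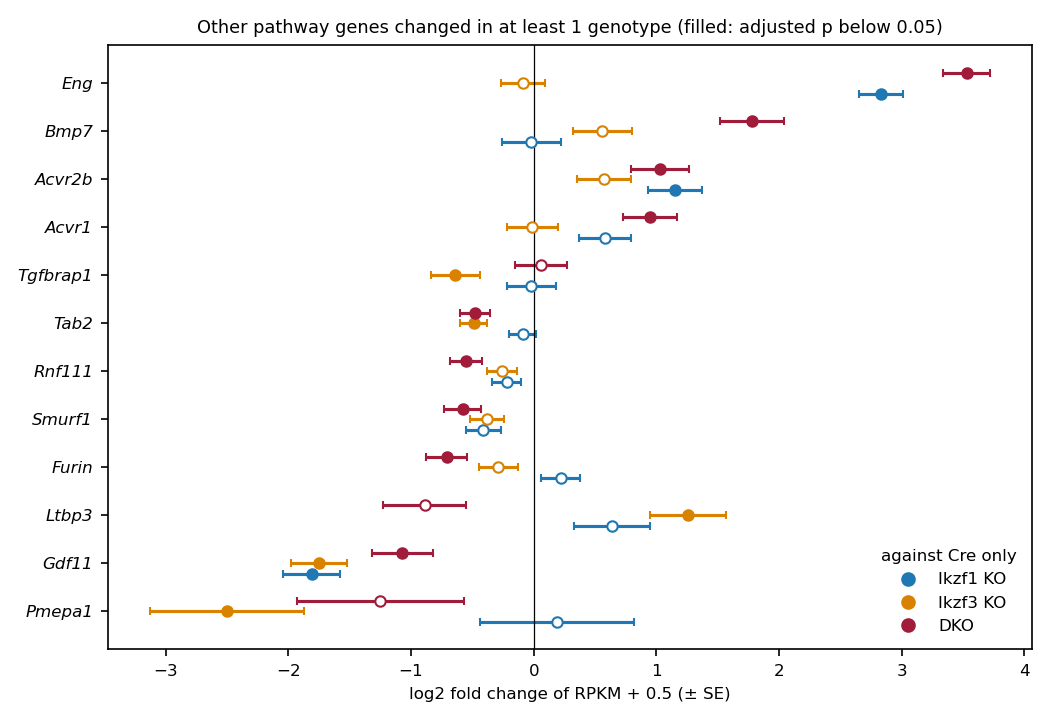
Log2 fold change of RPKM + 0.5 against Cre only, with its SE, for the genes of the wider pathway list called in at least 1 genotype; filled points passed an adjusted p of 0.05. Eng lies at 2.83 in Ikzf1 KO and 3.53 in DKO but near 0 in Ikzf3 KO, and Gdf11 lies below -1 in all 3.

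A list of 26 genes known to respond to TGF-beta in lymphocytes or other cells had 19 in the table and 16 kept for the test. Of the 16, 1 rose and none fell in Ikzf1 KO, 2 rose and 3 fell in Ikzf3 KO, and 2 rose and 4 fell in DKO, against Cre only, where 6.32%, 14.2% and 18.7% of all genes were called. In DKO, 2 rose and 2 fell against Ikzf1 KO and likewise against Ikzf3 KO, and the departure was called for 1 upward and 1 downward, where 7.48%, 20.1% and 6.55% of all genes were called. Medians against Cre only were -0.19, -0.19 and -0.12, beside -0.01, -0.02 and 0 over all genes. The list was not split by the direction in which TGF-beta moves each gene, so its medians do not measure the response.

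Klf2, a factor of lymphocyte quiescence and egress that TGF-beta is known to lower, rose in all 3 genotypes, by 1.36 ± 0.26 in Ikzf1 KO (adjusted p = 0.00588), 1.39 ± 0.26 in Ikzf3 KO (adjusted p = 0.0039) and 1.72 ± 0.28 in DKO (adjusted p = 0.000664). Cxcr3, a chemokine receptor, fell in Ikzf3 KO (-1.56 ± 0.24, adjusted p = 0.00131) and rose in DKO (1.04 ± 0.26, adjusted p = 0.0137), with means of 30.5 RPKM in Cre only, 23.0 in Ikzf1 KO, 10.7 in Ikzf3 KO and 64.0 in DKO. Its departure was 2.99 ± 0.36 (adjusted p = 0.000617). Zeb2, a factor of terminal NK cell maturation, fell in DKO (-0.85 ± 0.16, adjusted p = 0.00192), from 1.04 to 0.355 RPKM, and in Ikzf3 KO (-0.51 ± 0.15, adjusted p = 0.035), to 0.588 RPKM. It passed the filter only through libraries of Cre only and Ikzf1 KO, which favours these falls. In DKO it was also lower than in Ikzf1 KO (-0.77 ± 0.16, adjusted p = 0.00736).

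Rgs1, a regulator of chemokine receptor signals, fell in DKO (-1.24 ± 0.32, adjusted p = 0.0154) and was lower there than in Ikzf3 KO (-1.6 ± 0.32, adjusted p = 0.00309). Rgs2, of the same family, rose in Ikzf3 KO (0.91 ± 0.25, adjusted p = 0.0266). Tbx21, which encodes T-bet, fell in Ikzf3 KO (-0.59 ± 0.17, adjusted p = 0.0303), from 60.0 to 39.4 RPKM. Prdm1, which encodes Blimp-1, fell in DKO against Cre only (-1.02 ± 0.31, adjusted p = 0.0317) and was lower in DKO than in Ikzf1 KO (-1.21 ± 0.31, adjusted p = 0.0264) and Ikzf3 KO (-1.56 ± 0.31, adjusted p = 0.00253), with a departure of -1.75 ± 0.42 (adjusted p = 0.0229). Eomes, the T-box factor of NK cells, was higher in DKO than in Ikzf1 KO (0.59 ± 0.16, adjusted p = 0.0349), and Cxcr6 was higher in DKO than in Ikzf3 KO (2.02 ± 0.50, adjusted p = 0.0109).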

How the data were processed

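RNA of 15 cultured NK cell samples was analysed from 1 deposited table of RPKM, computed by the authors, with no counts. STAR, featureCounts, limma 3.34.9 and build mm10 are named in the submitters' processing notes, without settings. Column names give a genotype and a library number that the labels do not carry. Since no directly sorted group has 4 samples, the columns were taken as the cultured groups, and the 6 directly sorted samples were not analysed here. Exon lengths of GENCODE M21 turned the values of 11291 genes (96.2%) into whole reads within 0.02 read, which gave the depth (8.6 to 21.2 megareads). No pair of libraries of a group agreed within counting noise (chi-square per degree of freedom from 3.42 to 230.79).

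Genes of at least 1 RPKM in at least 3 libraries were kept (10032, among them all 10 members). Values were fitted as log2(RPKM + 0.5) with limma 3.58.1 in R 4.3.3, all 15 libraries together and a mean for each group, a mean-variance trend, robust moderation and 11 residual degrees of freedom. Tests were 2-sided with Benjamini-Hochberg adjustment over all genes kept, for 5 contrasts and the departure from additivity. Alternatives changed the pseudocount, filter, scaling, array weights, the groups fitted and the libraries, and a fit with limma's voom on recovered reads was chosen after seeing the data. The genes kept were held fixed when libraries were left out. Promoter letters came from RefSeq, and figures from Python 3.11.15 and matplotlib 3.10.9.

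The members, lists and rules were chosen with earlier results of these data known. Named genes were all members and, per list and comparison, up to 4 called genes with the smallest adjusted p and a mean of at least 1 RPKM in the higher group. For the 2 members called most often outside the departure, the 5 genes most alike were named, leaving out predicted genes and antigen receptor segments.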

Additional observations from a re-analysis of the deposited data

Results flagged for a closer look

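In 30 groups of 4 libraries (10 genes in 3 groups), a library far from the other 3 was looked for, and chance gives about 1 in 20 such groups. S15 of Ikzf1 KO stood apart for Tgfbr2, at 40.3 RPKM against 27.4 to 27.7 in the other 3, a gap of 0.974 of the whole range. It stood apart for Smad3 too, at 15.1 RPKM against 7.51 to 8.55, a gap of 0.864 of the range. Leaving S15 out ended neither call in Ikzf1 KO against Cre only.

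The departure from additivity was called for 3 genes: Smad3 (2.00), Tgfbr3 (1.52) and Tgfbr1 (1.15), on the log2 scale. Tgfbr3 passed the filter on low values through the DKO libraries alone, which favours an upward departure. The Tgfbr3 and Tgfbr1 values each lost their call under 1 alternative.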

How the results depend on the processing

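Over 10 genes, 6 comparisons and up to 28 alternatives each, 1634 values were recomputed: 1510 kept their direction and side of the threshold, 41 lost the call, 45 gained it and 38 changed sign, none of the last with a call.

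Percentages in brackets are the shares of all genes called under the same setting. The number of the 10 genes called was 2 in Ikzf1 KO against Cre only (6.32%). It became 7 with array weights (37.3%), 5 in a fit of those groups alone (20%) and 5 without S3 and S4 (17%). It was 0 without S18 and S19 (5.99%) and 6 with S5, S15, S18 and S19 as a term (20.1%), and ran from 2 to 3 with 1 library left out (3.33% to 8.17%). In Ikzf3 KO against Cre only it went from 3 (14.2%) to 5 with array weights (21.9%), 1 with those groups alone (4.47%) and 1 without S18 and S19 (7.64%). It ran from 3 to 5 with 1 library left out (5 without S5, 16.1%). In DKO against Cre only it went from 3 (18.7%) to 5 with the 4 libraries as a term (39.5%), and ran from 3 to 5 (5 without S5, 19.1%). In DKO against Ikzf1 KO it went from 2 (7.48%) to 1 with a filter of 5 RPKM (5.96%) and 4 with the term (26.9%). It ran from 1 to 3 (1 without S5, S6, S7, S12, S13 or S14, 3.94% to 8.25%). In DKO against Ikzf3 KO it went from 4 (20.1%) to 2 with the filter of 5 RPKM (16.8%) and 1 with those groups alone (6.76%). It ran from 2 to 4 (2 without S3, S5 or S7, 14% to 16.6%). The departure stayed at 3 (6.55%) with any 1 library left out (3.78% to 8.45%). The filter of 5 RPKM removes Tgfbr3; the cause of the other shifts was not tested. The share of all genes called moved too, over 3.33% to 37.3% in Ikzf1 KO, 4.47% to 29.9% in Ikzf3 KO and 10.4% to 39.5% in DKO, each against Cre only. It moved over 3.94% to 26.9% in DKO against Ikzf1 KO and 6.76% to 30.9% in DKO against Ikzf3 KO. Shifts in the counts therefore cannot be read as results about the 10 genes alone.

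Changes of sign: without S18 and S19, Acvr2a -0.03 and Ski 0.41 (Ikzf1 KO against Cre only), Ski 0.56 (DKO against Cre only) and Tgfbr2 -0.04 (departure). Without S16 and S17, Smad4 -0.01 (Ikzf1 KO), Acvr2a 0.11 (Ikzf3 KO) and Acvr2a -0.03 (departure). Without S3 and S4, Smad4 -0.09 (Ikzf3 KO), Smad7 0.17 (DKO against Ikzf3 KO) and Tgfb1 -0.06 (departure). With array weights, Smad4 -0.05 (Ikzf3 KO), Acvr2a -0.04 and Ski -0.01 (DKO against Ikzf1 KO) and Tgfb1 0 (departure). With 1 library left out the values crossing 0 ran as follows. In Ikzf1 KO, Acvr2a -0.06 to 0.20. In Ikzf3 KO, Acvr2a -0.21 to 0.07 and Smad7 -0.28 to 0.14. In DKO against Cre only, Acvr2a -0.20 to 0.40, Ski -0.76 to 0.08 and Smad3 -0.16 to 0.02. In DKO against Ikzf1 KO, Acvr2a -0.32 to 0.29, Ski -0.35 to 0.48, Skil -0.18 to 0.23, Smad7 -0.10 to 0.37 and Tgfbr1 -0.13 to 0.28. In DKO against Ikzf3 KO, Acvr2a -0.17 to 0.43 and Skil -0.39 to 0.02. In the departure, Acvr2a -0.28 to 0.32, Smad7 -0.02 to 0.46 and Tgfbr2 -0.03 to 0.35.

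No paired analysis was possible because the columns carry library numbers that differ between groups and no replicate number of the labels. The term for 4 libraries could not be fitted with Ikzf3 KO, which holds none of them, so fits with the term also leave that group out. Counts called with the term are a description, because the 4 libraries were found in these data. Depth limits Tgfbr3, which rests on 1 to 6 reads per Cre only library.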
